A study of Arabidopsis thaliana with 6 samples.

Results

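Transcripts of the cysteine-rich receptor-like kinase (CRK) and receptor-like protein (RLP) genes were examined in aerial parts of Arabidopsis thaliana seedlings. Members were the table rows named CRK on chromosome 4 between 11 and 13 Mb, CRK9 and above elsewhere, any RLP, and RLK4, RLK5 or RLK6. This gave 82 of 26765 rows: 31 CRK, 50 RLP and RLK4. No row carried the names RLK5 or RLK6. The groups were the mutant epic2 (3 samples) and wild type (3 samples), both in the Col-0 background, aged 17 days and grown with 16 h of light at 24 °C. The authors deposited 1 FPKM value (fragments counted per length of transcript and per size of library) for each group and gene, together with their own test, so levels carry no spread of their own. Their table calls the groups epic2 and silex. By elimination silex was taken as the wild type, so higher and lower refer to epic2 relative to silex. Which gene carries the epic2 change is not stated in the labels, and its level was not checked. The samples are labelled as biological replicates, with no word on how plants were divided among them, and sequencing depth is unknown.

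CRKs span the plasma membrane, with cysteine-rich DUF26 domains outside the cell and a protein kinase inside. RLPs carry leucine-rich repeats outside the cell but have no kinase, and they signal through partner kinases such as SOBIR1 and BAK1. Several members of both families act in recognition of microbes, in cell death and in the response to reactive oxygen. Many lie in tandem arrays of related copies. In the RefSeq annotation all 31 CRK members have a cysteine-rich kinase product and all 50 RLP members a receptor-like protein product. RLK4 (AT4G00340) is annotated only as a receptor-like protein kinase, not as cysteine-rich.

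The aerial label was checked against marker genes. Of 14 aerial markers 13 had a row, and the small subunit gene RBCS3B stood at 14063 FPKM in epic2 and 12886 FPKM in silex. FAMA, a transcription factor of the guard cell lineage, was the 1 called aerial marker, with 7.67 FPKM in epic2 and 13.7 FPKM in silex. Of 9 root markers 5 were tested, of which CASP1 and FRO2 were called higher and PYK10 lower. CASP1 had 1.52 FPKM in epic2 and 0.252 FPKM in silex, and FRO2 had 1.74 FPKM in epic2 and 0.857 FPKM in silex. Summed FPKM over the root list was 86.0 in epic2 and 160.7 in silex, most of it PYK10, with 51.8 FPKM in epic2 and 130.9 FPKM in silex. Pollen markers reached at most 0.0807 FPKM. In bulk aerial tissue fewer cells of a type and less RNA per cell cannot be told apart, and the part of these markers in the results below was not tested.

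The comparison asked which receptor genes differ in epic2 plants. The called CRK genes held rises and falls side by side, while 5 of the 6 called RLP genes fell. The RLP family as a whole did not lean that way. Of its 35 tested genes 23 had a ratio of epic2 to silex above 1 and 12 below it. A gene was called at the authors' q of 0.05 or below. At that threshold 18.3% of 18916 tested rows in the whole table were called, 9.51% higher and 8.8% lower in epic2. Of 20 tested CRK genes 9 were called (45%), 5 higher and 4 lower. Of 35 tested RLP genes 6 were called (17.1%), 1 higher and 5 lower. The CRK share stood above that of the table, and the RLP share was near it. The split of calls between the families was not tested.

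Changes in both families were mostly modest. The median log2 change of log2(FPKM + 1) over all 31 CRK rows was 0.05, and over all 50 RLP rows 0.03. Over all rows of the table it was 0, with 3977 rows at 0 FPKM in both groups. Over tested rows the median was 0.16 for CRK, 0.05 for RLP and 0.01 for the whole table. Among tested genes the median absolute log2 fold change was 0.41 for CRK and 0.19 for RLP genes, beside 0.19 for all tested rows. Members were also weakly expressed, with a median of 3.01 FPKM among those tested, against 10.9 FPKM over all tested rows. Level and call share can be set side by side. Between 1 and 5 FPKM 26.1% of tested members were called and 12.9% of all tested rows, and between 5 and 20 FPKM 21.1% of tested members and 13.2% of all tested rows. Above that, up to 100 FPKM, 3 of 4 members were called, all of them CRK genes that rose, beside 27.5% of all tested rows. Precision was lower for members. The median standard error of the log2 fold change, implied by the authors' test statistic, was 0.23 for tested members and 0.16 for all tested rows.

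**Figure D1:**
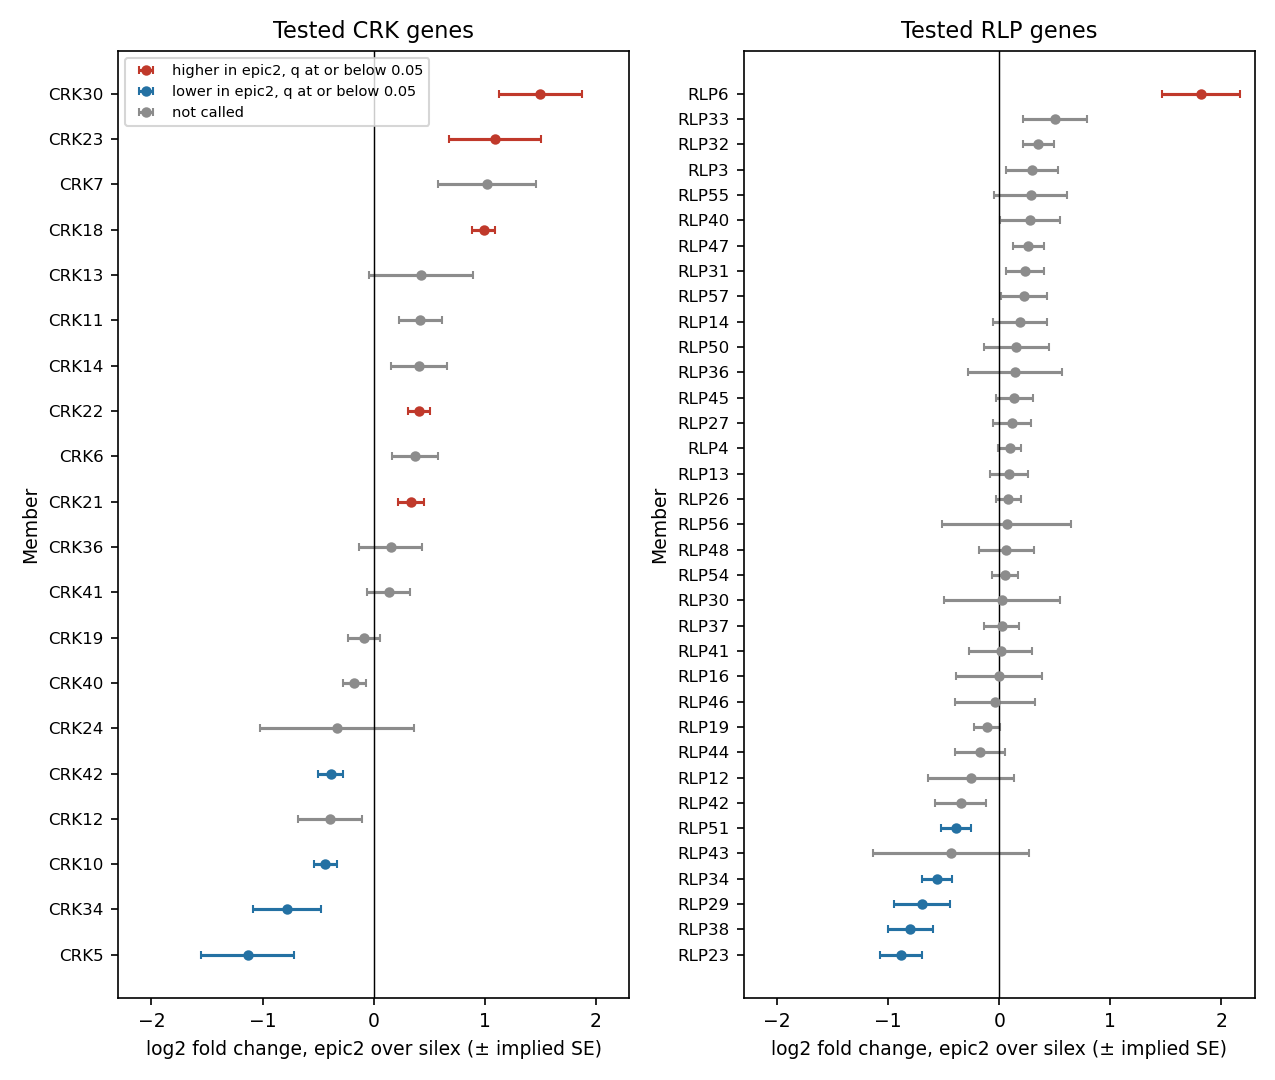
Log2 fold change of epic2 over silex for the 20 tested CRK genes and the 35 tested RLP genes, from the authors' deposited table. Points are the authors' values, bars are the standard error implied by their statistic, and colour marks the call. The 9 coloured CRK points lie on both sides of 0, and 5 of the 6 coloured RLP points lie below it.

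CRK18 showed the best supported rise in the family. It stood at 37.5 FPKM in epic2 and 18.8 FPKM in silex, a 1.99-fold difference. In the authors' deposited table its log2 fold change was 0.99, with an implied standard error of 0.10 and a q listed as 0. CRK18 (AT4G23260, chromosome 4, 12167354 to 12170086 in TAIR10) was also among the 4 members with the highest levels. Those 4 were CRK21, CRK40, CRK18 and CRK22, in falling order of mean FPKM.

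CRK30 (AT4G11460, chromosome 4, 6964397 to 6967093) had the largest proportional rise among CRK genes, from a low base. It had 4.02 FPKM in epic2 and 1.42 FPKM in silex. Its log2 fold change in the authors' deposited table was 1.50 ± 0.37 (implied SE, q = 0.000552). CRK30 was the 1 member at least 2-fold higher on the log2(FPKM + 1) scale, where it rose by 1.05. CRK23 was weaker still, at 0.744 FPKM in epic2 and 0.349 FPKM in silex. Its log2 fold change of 1.09 ± 0.42 (implied SE, q = 0.0380 in the authors' deposited table) did not pass when p-values were adjusted again over the tested rows, nor after centring on the median.

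The neighbours CRK21 and CRK22 rose by smaller proportions at high levels. CRK21 reached 47.4 FPKM in epic2, against 37.5 FPKM in silex, the highest level of any member. Its log2 fold change in the authors' deposited table was 0.34, with an implied standard error of 0.12 and q = 0.0236. CRK22 stood at 22.8 FPKM in epic2 and 17.2 FPKM in silex. For CRK22 the log2 fold change was 0.41 ± 0.10 in the authors' deposited table (implied SE, q = 0.000432).

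CRK5 and CRK10 both fell in epic2. CRK5 (AT4G23130, chromosome 4, 12117541 to 12120134), also annotated as RLK6, had 1.28 FPKM in epic2 and 2.82 FPKM in silex. In the authors' deposited table its log2 fold change was -1.13, with an implied standard error of 0.42 and q = 0.0305. CRK10 (AT4G23180, chromosome 4, 12138137 to 12140921) had 14.9 FPKM in epic2 and 20.2 FPKM in silex. CRK10 had a log2 fold change of -0.43 ± 0.11 in the authors' deposited table (implied SE, q = 0.000390). The CRK10 row touches the annotated span of CRK11, and the labels do not state strand, so overlapping reads cannot be assigned.

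CRK42 on chromosome 5 fell to 11.3 FPKM in epic2, against 14.8 FPKM in silex. The authors' deposited table lists a log2 fold change of -0.39 for CRK42, with an implied standard error of 0.11 and q = 0.00400. CRK34 had 1.41 FPKM in epic2 and 2.43 FPKM in silex, with a log2 fold change of -0.78 ± 0.31 (implied SE). Its q of 0.0485 in the authors' deposited table lay just under the threshold, and it was lost on renewed adjustment over the tested rows and after centring. CRK30 and CRK34, which moved in opposite directions, lie in 1 cluster of 5 members within 25.3 kb.

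**Figure D2:**
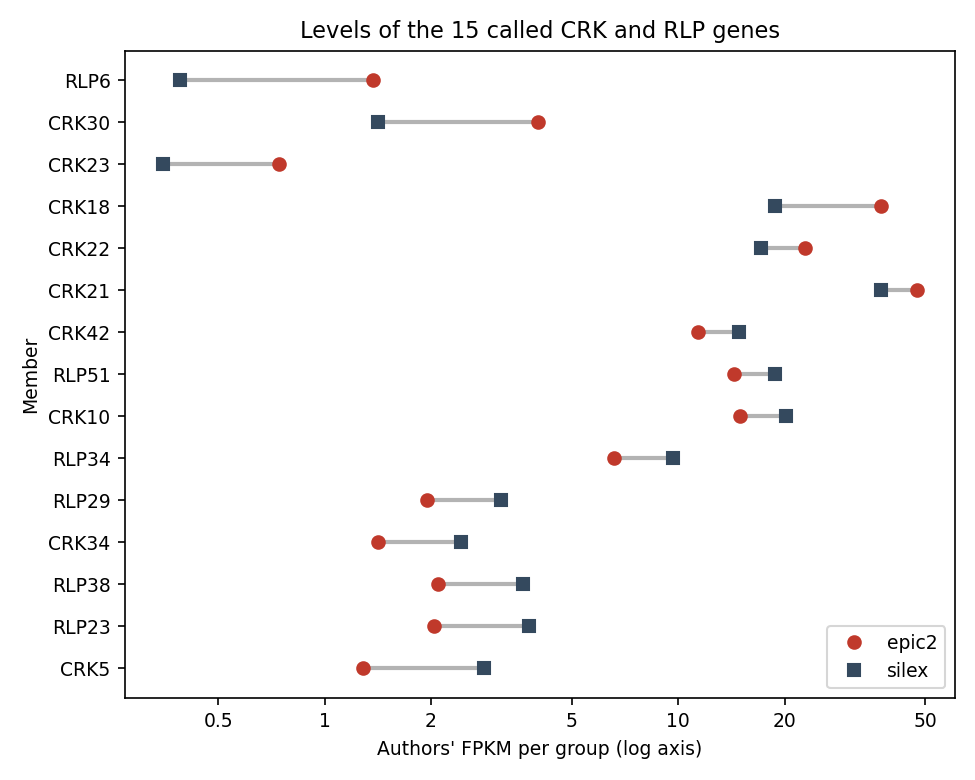
Authors' FPKM per group, on a log axis, for the 15 called members, ordered by log2 fold change. Circles are epic2, squares are silex, and the grey line joins the 2 values of a gene. The 6 genes at the top are higher in epic2, and CRK18, CRK21 and CRK22 among them have far higher levels than RLP6, CRK30 and CRK23.

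The main CRK array on chromosome 4 (12117541 to 12191977) held 16 members in 74.4 kb, from CRK5 to CRK24. The called falls and rises lay in different stretches of it, but uncalled members did not follow the same split. The 2 called falls, CRK5 and CRK10, lay among the first 5 members, and the 4 called rises, CRK18, CRK21, CRK22 and CRK23, among the last 7. Among the first 5, the uncalled CRK6 and CRK7 had log2 fold changes of 0.37 and 1.02. Among the last 7, the uncalled CRK19 and CRK24 had -0.08 and -0.33. CRK11, next to CRK10, had 0.42 and was not called. CRK21, CRK22 and CRK23 are immediate neighbours. Summed over the 16 members the array had 143.8 FPKM in epic2 and 114.2 FPKM in silex, most of it from CRK18, CRK21 and CRK22. The sum leaves out rows within the array that are not members. Of these EP1 was called lower, with 8.33 FPKM in epic2 and 16.3 FPKM in silex. The joined row of CRK15, CRK16 and EMB1290 had 16.6 FPKM in epic2 and 17.8 FPKM in silex and was not called. Across all members 24 pairs of tested neighbours lay within 20 kb of each other, and 12 of these had fold changes of the same sign. These pairs include RLP40 with RLP41 and RLP41 with RLP42, whose rows have the same interval. Some pairs also have untested members or other genes between them, such as CRK7 and CRK10. Among those 24 pairs both genes were called in 3, and in 2 of the 3, both between CRK21 and CRK23, they moved the same way. CRK19, next to CRK18, had 6.88 FPKM in epic2 and 7.29 FPKM in silex and was not called.

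**Figure D3:**
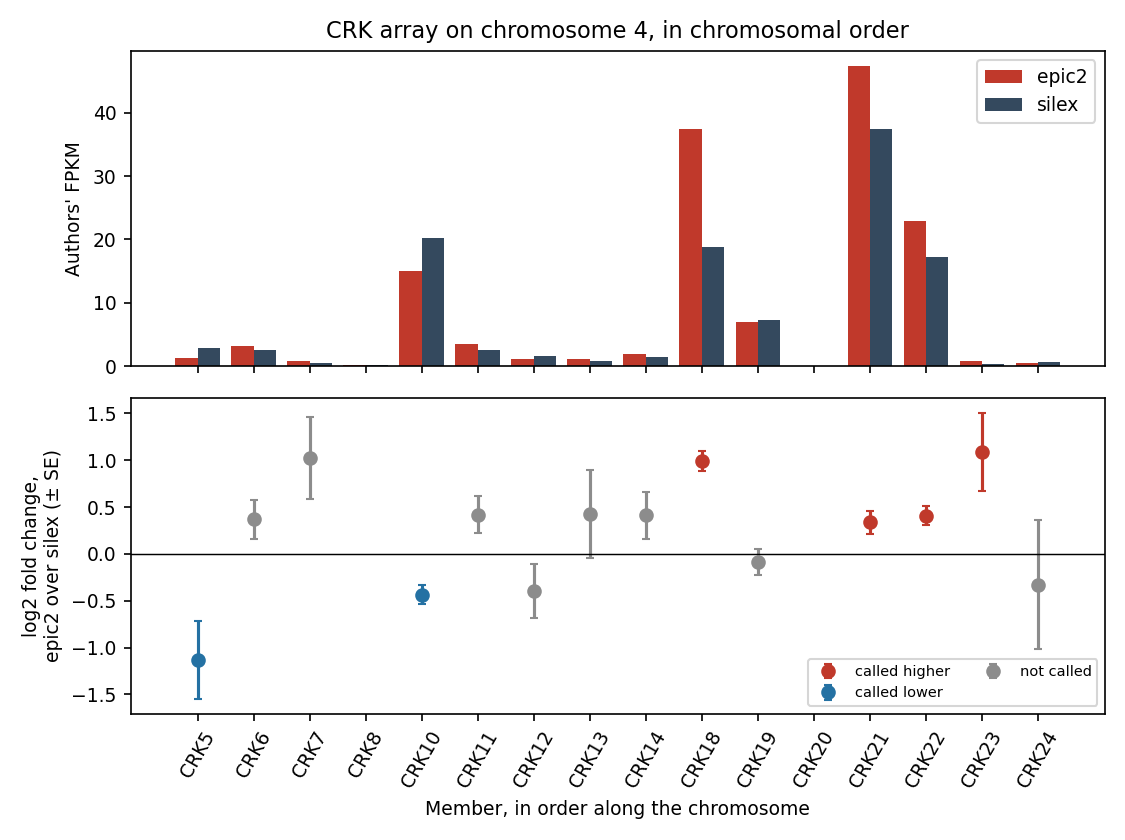
The 16 members of the main CRK array in their order along chromosome 4. Upper bars give the authors' FPKM per group, and lower points give the log2 fold change of epic2 over silex with the implied standard error. CRK8 and CRK20 were not tested and have no point. The coloured points below 0 are CRK5 and CRK10, and those above 0 are CRK18, CRK21, CRK22 and CRK23.

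The other 11 tested CRK genes were not called. CRK40, the second highest member, had 35.2 FPKM in epic2 and 39.7 FPKM in silex, and the 95% interval of its log2 fold change ran from -0.37 to 0.03. CRK7, which with CRK6 limits cell death caused by extracellular reactive oxygen, came nearest to a call in this family. It had 0.821 FPKM in epic2 and 0.404 FPKM in silex (q = 0.0745 in the authors' deposited table). CRK6 had 3.19 FPKM in epic2 and 2.47 FPKM in silex, with an interval from -0.04 to 0.78. The authors left 11 CRK genes untested for lack of data. None of these exceeded 0.416 FPKM, the level of CRK37 in epic2, and CRK33 was listed at 0 in both groups.

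Among RLP genes, RLP23 and RLP51, both with known roles in immunity, fell in epic2. RLP23 is the receptor for a peptide shared by necrosis-inducing proteins of bacteria, fungi and oomycetes. RLP23 (AT2G32680, chromosome 2, 13857877 to 13862614) had 2.05 FPKM in epic2 and 3.78 FPKM in silex. In the authors' deposited table its log2 fold change was -0.89, with an implied standard error of 0.19 and q = 5.23e-05. RLP51 is also known as SNC2, and a gain-of-function form of it switches on defence without a pathogen. RLP51 (AT4G18760, chromosome 4, 10308163 to 10309458) had 14.4 FPKM in epic2 and 18.8 FPKM in silex. The log2 fold change of RLP51 was -0.39 ± 0.13 in the authors' deposited table (implied SE, q = 0.0178).

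RLP38, RLP29 and RLP34 made up the other RLP falls. RLP38 had 2.09 FPKM in epic2 and 3.64 FPKM in silex, with a log2 fold change of -0.80 ± 0.21 (implied SE, q = 0.000937 in the authors' deposited table). RLP29 stood at 1.94 FPKM in epic2 and 3.15 FPKM in silex, with a log2 fold change of -0.70 ± 0.26 (implied SE, q = 0.0303 in the authors' deposited table). RLP34 had 6.59 FPKM in epic2 and 9.70 FPKM in silex, with a log2 fold change of -0.56 ± 0.13 (implied SE, q = 0.000355 in the authors' deposited table). The rows of RLP23 and RLP34 each overlap a neighbouring gene, and that of CRK42 does too.

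RLP6 was the single called RLP rise and had the largest proportional change of any tested member. It stood at 1.37 FPKM in epic2 and 0.390 FPKM in silex, a 3.52-fold difference. In the authors' deposited table RLP6 (AT1G45616, chromosome 1, 17183550 to 17186534) changed by 1.81 ± 0.35 on the log2 scale (implied SE, q = 4.84e-06). RLP6 and CRK18 were the only members still called under Bonferroni adjustment over the tested rows.

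No call was made for 29 tested RLP genes, 23 RLP genes having a ratio above 1 and 12 below it among the 35 tested. RLP32, which recognises a bacterial translation initiation factor, came closest. It had 6.02 FPKM in epic2 and 4.71 FPKM in silex, and its q of 0.0528 in the authors' deposited table lay just over the threshold. RLP30, RLP42 and RLP44, singled out for their known roles after their values were seen, were not called either. RLP30, a receptor in resistance to Sclerotinia, had 1.08 FPKM in epic2 and 1.06 FPKM in silex, but its 95% interval of the log2 fold change was wide, from -0.996 to 1.05, and its row overlaps another gene. RLP42, which recognises fungal polygalacturonases, had 3.22 FPKM in epic2 and 4.10 FPKM in silex, with an interval from -0.79 to 0.10, and its row spans several other genes. RLP44, which links the state of cell wall pectin to brassinosteroid signalling, had 4.92 FPKM in epic2 and 5.56 FPKM in silex, with an interval from -0.62 to 0.27. RLP4 had the highest mean level in the family, at 20.5 FPKM in epic2 and 19.2 FPKM in silex. The 15 untested RLP genes reached at most 0.361 FPKM, the level of RLP2 in epic2. RLK4 had 14.5 FPKM in epic2 and 13.5 FPKM in silex and was not called, with an interval from -0.10 to 0.30.

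How far related copies could share reads was measured in the reference genome. The labels give single reads of 50 bases. Of all windows of 50 bases within a member's exons, those found exactly elsewhere in the nuclear genome were counted. No such window was found for 44 of 82 members, among them 7 of the 15 called ones. Among called members the share was highest for RLP34 at 17.8% of windows and CRK22 at 16.2%. All 365 shared windows of CRK22 matched CRK13, where the same 365 windows made up 15.4%. CRK13 stood at 1.06 FPKM in epic2 and 0.786 FPKM in silex and was not called. CRK18 shared 4.70% of its windows, with AT4G23250, annotated as EMB1290 or CRK17. The division of reads is therefore uncertain for RLP34, CRK22 and CRK13, and for other members with high shares. Of 82 members 14 shared more than 5% of their windows. Among them was the uncalled CRK6 at 22.0%, with 452 of its 495 shared windows matching CRK8. The highest shares of all members were those of RLP42 and RLP40, at 31.6% and 26.9%, neither of which was called. Reads with mismatches were not considered.

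The 250 bases before the start of each member in the RefSeq annotation were searched for TTGAC, the core of the W-box bound by WRKY factors, on both strands. Of 82 members 63 (76.8%) held it, against 12329 of 27443 protein-coding genes (44.9%). The share was 77.4% for CRK and 76.0% for RLP genes. The longer forms TTGACC or TTGACT, each of which contains the core, were found in 46 members (56.1%) and in 28.4% of all genes. Among called members the core was present in 3 of the 6 that rose and 8 of the 9 that fell. TGACG, which can overlap the core by 4 bases, was present in 22 of 82 members (26.8%) and in 18.6% of all genes. Among called members it was present in 2 of the 6 that rose and 0 of the 9 that fell. GCCGCC was present in 0 of 82 members and 1.87% of all genes. A match is a run of letters and shows no binding.

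Whether called rises and falls differ in how often they carry the core was not tested. The windows of called genes with the largest changes on the log2(FPKM + 1) scale, up to 2 in each family and direction, are shown. They were read 5′ to 3′ on the strand of the gene from the TAIR10.1 RefSeq assembly, whose nuclear coordinates match those of TAIR10. Capitals mark TTGAC or its reverse complement GTCAA, and the last base lies just before the RefSeq start. That start often differs from the authors' row: of 23740 rows matched by symbol, 14.5% had both ends equal. The CRK30 window ends at 6963520, while its row starts at 6964397. The CRK18 window begins inside its row, which ends at 12170086. Presence and positions of the core therefore hold for the RefSeq starts only, and the starts of the rows were not tried. The risers come first: CRK30 (chr4:6963271-6963520, plus strand), CRK18 (chr4:12170081-12170330, minus strand) and RLP6 (chr1:17186603-17186852, minus strand). The fallers follow: CRK5 (chr4:12120221-12120470, minus strand), RLP23 (chr2:13862615-13862864, minus strand) and RLP38 (chr3:8229620-8229869, minus strand). The window of CRK34 overlaps another annotated gene and is not shown.
CRK30: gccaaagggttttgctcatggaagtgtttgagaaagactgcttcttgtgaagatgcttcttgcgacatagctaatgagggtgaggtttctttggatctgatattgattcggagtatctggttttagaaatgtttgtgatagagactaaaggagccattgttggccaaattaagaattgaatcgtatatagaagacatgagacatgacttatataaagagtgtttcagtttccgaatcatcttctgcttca
CRK18: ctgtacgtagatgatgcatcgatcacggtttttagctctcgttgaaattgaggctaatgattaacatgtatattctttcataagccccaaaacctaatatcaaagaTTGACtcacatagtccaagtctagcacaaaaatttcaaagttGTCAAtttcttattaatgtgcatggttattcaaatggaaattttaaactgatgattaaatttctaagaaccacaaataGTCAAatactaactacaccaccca
RLP6: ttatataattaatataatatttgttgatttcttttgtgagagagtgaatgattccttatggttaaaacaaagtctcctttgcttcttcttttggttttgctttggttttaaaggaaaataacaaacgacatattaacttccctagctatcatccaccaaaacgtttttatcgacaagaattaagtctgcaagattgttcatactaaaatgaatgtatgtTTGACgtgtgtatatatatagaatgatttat
CRK5: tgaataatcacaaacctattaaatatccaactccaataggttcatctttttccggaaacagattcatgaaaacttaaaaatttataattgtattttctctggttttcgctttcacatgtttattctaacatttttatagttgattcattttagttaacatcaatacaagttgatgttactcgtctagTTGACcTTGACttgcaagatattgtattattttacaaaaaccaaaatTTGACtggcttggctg
RLP23: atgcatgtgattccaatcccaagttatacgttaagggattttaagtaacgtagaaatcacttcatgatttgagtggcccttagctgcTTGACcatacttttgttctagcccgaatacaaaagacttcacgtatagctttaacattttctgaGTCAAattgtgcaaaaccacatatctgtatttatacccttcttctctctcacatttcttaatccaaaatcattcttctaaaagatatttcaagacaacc
RLP38: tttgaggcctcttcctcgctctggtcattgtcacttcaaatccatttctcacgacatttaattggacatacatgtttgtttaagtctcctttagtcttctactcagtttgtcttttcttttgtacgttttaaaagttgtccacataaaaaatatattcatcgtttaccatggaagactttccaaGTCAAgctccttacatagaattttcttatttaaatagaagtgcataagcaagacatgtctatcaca

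CRK5 had 3 copies of the core within the last 63 bases before its start, each followed by C or T. RLP23 had 2, at 163 and 99 bases before the start. CRK18, although it rose, also had 3 copies, while CRK30, CRK21 and CRK22 had 0, as did the faller RLP29. Presence of the core thus did not separate the risers from the fallers gene by gene.

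Genes that act with these receptors were counted from lists chosen with earlier results of these data known. Of 15 RLP co-receptors and adaptors 13 were tested, 1 rose (7.69%) and 3 fell (23.1%). Of all tested rows 9.51% were higher and 8.8% lower. SOBIR1, the partner kinase of most RLPs, fell to 15.8 FPKM in epic2, against 22.1 FPKM in silex. BAK1, the co-receptor they share with receptor kinases, had 10.8 FPKM in epic2 and 13.8 FPKM in silex. BIR1, a negative regulator of SOBIR1 and BAK1, fell to 8.87 FPKM in epic2, against 10.9 FPKM in silex. ERL2, an ERECTA-like kinase that works with the RLP gene TMM in stomatal patterning, rose to 10.3 FPKM in epic2, against 5.92 FPKM in silex.

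Other receptors and relay proteins were called lower or not at all. Of 27 listed surface receptors 19 were tested, 0 rose and 8 fell (42.1%, with 8.8% of all tested rows lower). WAK1, a wall-associated kinase that binds pectin, had 13.3 FPKM in epic2 and 36.7 FPKM in silex. HAE, the receptor kinase of floral organ abscission that is also called RLK5, had 2.83 FPKM in epic2 and 6.01 FPKM in silex. THE1, a sensor of cell wall integrity, had 11.7 FPKM in epic2 and 18.0 FPKM in silex, and the chitin receptor LYK5 had 1.68 FPKM in epic2 and 2.67 FPKM in silex. Of 23 tested cytoplasmic relay genes 0 rose and 4 fell (17.4%, with 8.8% of all tested rows lower). The largest of these falls was ADR1-L1, a helper of immune receptors, with 10.7 FPKM in epic2 and 16.0 FPKM in silex. The kinases BIK1 and MPK6, the oxidase RBOHD and the regulator EDS1, singled out for their known roles after their values were seen, were not called.

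**Figure D4:**
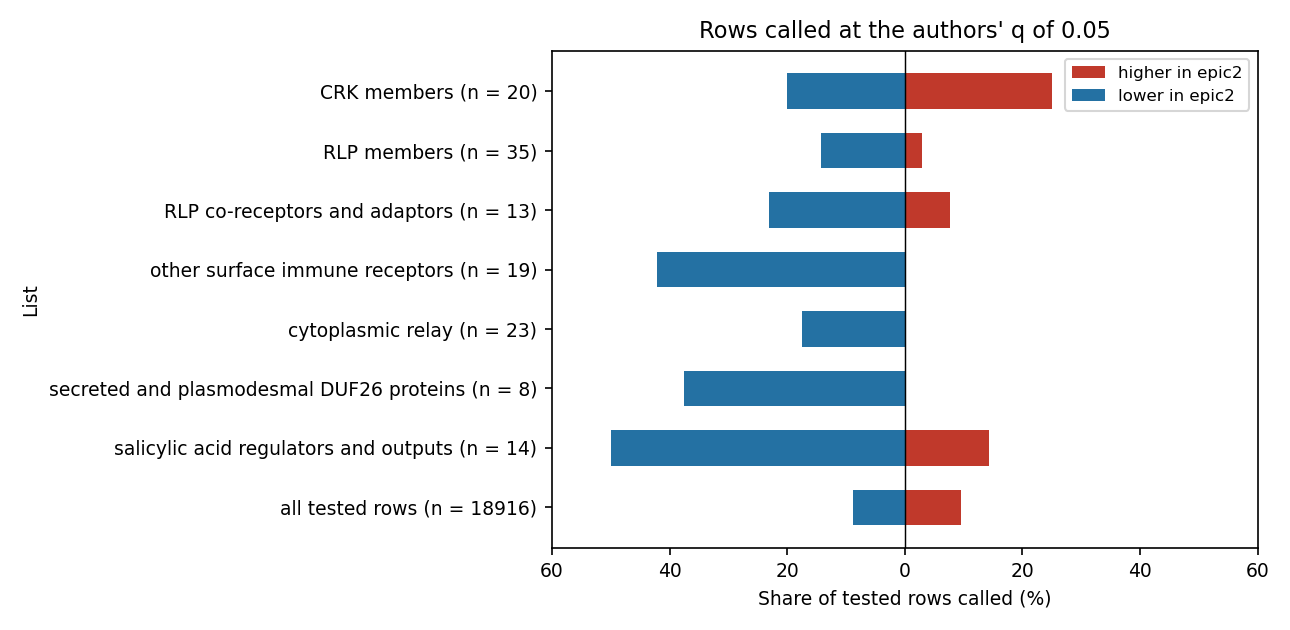
Share of tested rows called at the authors' q of 0.05, with rows lower in epic2 to the left and rows higher in epic2 to the right. Each bar is a gene list, n is its number of tested rows, and the bottom bar gives all tested rows. CRK members had 25% higher and 20% lower, RLP members 2.86% higher and 14.3% lower, and 2 of the other 5 lists had any rise.

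Secreted and plasmodesmal proteins that share the DUF26 domain of the CRKs gave 3 falls and 0 rises among 8 tested. The falls made up 37.5%, with 8.8% of all tested rows lower. PDLP5, which closes plasmodesmata in response to salicylic acid, fell to 1.39 FPKM in epic2, against 3.78 FPKM in silex. PDLP1 had 0.953 FPKM in epic2 and 2.46 FPKM in silex. EP1, which lies inside the main CRK array and is also annotated as CRK9, had 8.33 FPKM in epic2 and 16.3 FPKM in silex. Of 14 tested regulators and outputs of salicylic acid 2 rose (14.3%) and 7 fell (50%), beside 9.51% higher and 8.8% lower of all tested rows. The falls include NPR1, a receptor of salicylic acid, from the higher of its 2 rows over the same interval, with 7.04 FPKM in epic2 and 10.1 FPKM in silex. The authors' deposited table gives its other row a q of 0.465, not called. The largest fall on the log2(FPKM + 1) scale was WRKY70, a WRKY factor, with 9.58 FPKM in epic2 and 42.8 FPKM in silex. ACD6, NIMIN1 and CBP60G fell too, to 33.5, 0.855 and 1.70 FPKM in epic2, against 97.9, 3.97 and 5.50 FPKM in silex. The rises were PR5, with 22.5 FPKM in epic2 and 10.8 FPKM in silex, and PBS3, with 5.42 FPKM in epic2 and 3.57 FPKM in silex.

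Low-numbered cysteine-rich kinases on other chromosomes fall outside the members, because their names are shared with calcium-dependent kinases. The RefSeq annotation identifies 3 such rows by position, and their values bear on the family's balance. CRK4 (AT3G45860, chromosome 3, 16863149 to 16866054), whose forced expression can cause cell death, fell to 2.26 FPKM in epic2, against 9.51 FPKM in silex. In the authors' deposited table its log2 fold change was -2.07, with an implied standard error of 0.21, further from 0 than that of any called member. CRK3 on chromosome 1 had 6.58 FPKM in epic2 and 10.2 FPKM in silex and was called lower (q = 6.32e-05 in the authors' deposited table). CRK2, which phosphorylates the oxidase RBOHD, had 11.9 FPKM in epic2 and 14.3 FPKM in silex and was not called (q = 0.174 in the authors' deposited table). Rows that join several genes were not members either, and none of these was called: CRK28 with CRK29 had 8.39 FPKM in epic2 and 6.54 FPKM in silex, and CRK15, CRK16 and EMB1290 together had 16.6 FPKM in epic2 and 17.8 FPKM in silex.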

How the data were processed

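Total RNA of 6 samples, 3 epic2 and 3 wild type, was sequenced as single reads. The submitters' processing notes list TopHat, Cufflinks and Cuffdiff and, as build, TAIR10. The authors deposited FPKM with replicates pooled; how these were scaled is not stated in the labels. Per the file headers each row also has a fold change on the log2 scale (epic2 over silex), a test statistic score, a p-value and a q-value. The statistic has the opposite sign to the fold change and its two-sided normal p equalled the p-value, so implied standard errors are fold change over statistic, and 95% intervals are their normal bounds. Depth and the spread between samples are unknown. The p-values are the authors' own, from 3 samples of each group, and what variation enters them cannot be read from pooled values. They cover no variation beyond those samples.

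Members, lists and tests were chosen with earlier results of these data known. The rule for named genes took all called members, the 4 highest, the 2 nearest the threshold, the highest untested and up to 4 called genes of each list by log2(FPKM + 1); others, such as CRK6, CRK19, RLP4 and RLK4, were named after their values were seen. All 82 members matched a RefSeq gene. ER, FLS2, PEPR1, DORN1 and MPK3 were among listed genes without a single match or row. Starts are 1-based. Alternatives were stricter, looser and renewed adjustments, minimum levels and folds, centring and another pseudocount. The renewed adjustment and the centring were tried on normal values simulated with the implied standard errors. The reported calls rest on the authors' q, which this trial did not check. Calculations ran in Python 3.11.15 with numpy 2.4.6, pandas 2.3.3 and scipy 1.17.1, and figures in matplotlib 3.10.9.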

Additional observations from a re-analysis of the deposited data

How the results depend on the processing

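Counts of called members were most sensitive to stricter calling. At a q of 0.01 the falls were 5 over all members, 2 CRK and 3 RLP, and the CRK rises were 3. At a q of 0.10 the RLP rises were 2. Under Bonferroni adjustment the rises were 2 over all members and 1 for CRK, and the falls 0 over all members, 0 for CRK and 0 for RLP. With a 2-fold minimum the rises were 1 over all members, 1 for CRK and 0 for RLP, and the falls 0 in each. With a minimum mean of 1 FPKM the RLP rises were 0, since RLP6 lies below it. Renewed adjustment over the tested rows gave 5 rises and 8 falls, as did centring on the median log2 change of 0.02, and both lost CRK23 and CRK34. Fewer or more calls follow from these settings by construction. Over all tested rows there were 1798 rises and 1664 falls at the main threshold. They were 1119 and 1120 at a q of 0.01, and 2239 and 2045 at 0.10. Bonferroni adjustment left 321 and 513, the 2-fold minimum 94 and 213, and the minimum mean of 1 FPKM 1739 and 1597. Renewed adjustment gave 1665 and 1543, and centring 1485 and 1640. None of the 18 named members run under these alternatives changed direction, but this outcome was fixed in advance. Only centring could have reversed a sign, and its shift of 0.02 was smaller than the smallest of their changes, -0.17 for CRK40. The median log2 change ranged from 0.04 to 0.16 for CRK and from 0.01 to 0.07 for RLP genes. No paired analysis was possible because the table holds 1 value per group, and for the same reason no sample could be left out. Depth is unknown, so what it limits was not measured.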
